A study of Mus musculus with 6 samples.

Results

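The expression of metallothioneins and of genes that move or sense zinc was examined in muscle stem cells (MuSCs, which rebuild muscle fibres after injury) taken fresh from control and Taf4asKO mice. Of the 22081 genes in the table, 10 were chosen by name with the difference between the groups already known: the metallothionein genes Mt1 and Mt2, the zinc-sensing transcription factor gene Mtf1, and the zinc transporter genes Slc30a1, Slc30a4, Slc30a5, Slc39a1, Slc39a6, Slc39a10 and Slc39a14. Their differences between the groups are therefore a description. They were part of the fit across all genes, whose calls are counted below, but no p-value is given for them and nothing is supported with their calls. RNA-seq of total RNA covered 3 control and 3 Taf4asKO libraries, each made from 10 ng of RNA. All mice were on a C57BL/6 background. Taf4asKO mice carried Taf4a alleles with a pair of exons between loxP sites and a tamoxifen-inducible Cre recombinase expressed from Pax7, the defining gene of MuSCs, and received tamoxifen as adults. The titles call the control libraries WT. In the methods, control mice were littermates that, for the study as a whole, also had floxed Taf4a alleles, with or without the Cre allele. Which of these genotypes each control library had, whether control mice received tamoxifen and whether a mouse carried the green fluorescent Pax7 reporter that some animals had are not given in the sources used here. MuSCs were sorted from digested limb and trunk muscle as cells lacking SCA1, CD45 and CD31 and bearing integrin alpha 7 or the reporter. The methods describe replicates in general as biological, and the titles number them without tying a library to a mouse, so p-values measure the spread between these libraries.

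Metallothioneins are small proteins rich in cysteine that hold zinc and copper ions and are induced by metals, glucocorticoids, cytokines and oxidative stress. The transcription factor MTF1 binds zinc through its zinc fingers when free zinc rises and then acts on genes whose promoters hold metal response elements, among them Mt1, Mt2 and Slc30a1. Zinc transporters of the ZnT family (Slc30a genes) carry zinc out of the cytosol, across the plasma membrane or into organelles, and those of the ZIP family (Slc39a genes) carry it into the cytosol.

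Values are normalized counts, which are gene counts that were divided by a size factor for each library and rounded. Total normalized counts lay between 12338676 and 14551732 per library. Taf4, the gene formerly named Taf4a, measured 613, 534 and 478 in the control libraries, against 631, 565 and 574 in those labelled Taf4asKO (log2 difference 0.13, SE 0.12, limma adjusted p 0.524). This value sums reads over all exons, so it does not test the deletion. The paper reports efficient deletion by genomic PCR, and almost no Taf4a transcript by RT-qPCR or protein by western blot. The summed reads do not show such a loss of transcript. Directions below are relative to the groups as labelled. The MuSC label was checked with 8 marker genes including Pax7 and Myf5, whose summed level was 34186 to 35718 in control and 35476 to 38511 in Taf4asKO. Of these, 2 were called higher and 3 lower, 5 in all, against 3 in all when any Taf4asKO library was left out. With the replicate number as a block, 2 were called higher and 4 lower. Markers of other cell types also moved with the groups. The sum of 6 Schwann cell markers was 1307 to 3159 in control and 4017 to 4980 in Taf4asKO, with 5 of 6 higher past the threshold used below but 1 when any Taf4asKO library was left out. The sum of 7 endothelial markers was 915 to 1336 and 1463 to 1812, and that of the 4 haematopoietic markers matched, of 8 listed, was 469 to 581 and 696 to 942. The higher haematopoietic sum came from Lyz2, a gene of myeloid cells, while the other 3 markers had log2 differences below 0 and the list median was -0.29. In limma 0 of either list passed, with 5 and 2 genes at an unadjusted p under 0.05 and 3 and 1 called when the replicate number was a block. The sum of 6 pericyte and smooth muscle markers was 9485 to 14779 and 14765 to 17272, with 2 of 6 higher (5 with the block, 0 without Taf4asKO replicate 2 or 3). That of 8 fibro-adipogenic markers was 56446 to 82867 and 34056 to 56403, with 3 of 8 lower, 7 called with the block (4 higher and 3 lower) and a median log2 difference of 0.65. The 6 myofibre markers summed to 1193 to 3772 and 2141 to 2712, with overlapping groups. No matched marker was at 0 in any library. The study re-analysed its sorted cells and reported a purity short of complete, without tying it to these libraries. The part of other cell types in the values below was not tested, and in bulk RNA fewer cells of a type and less RNA per cell cannot be told apart.

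The promoters of Mt1, Mt2 and Slc30a1 are shown because these genes had the largest differences between the groups of the 10 and are textbook targets of MTF1. Each line gives the RefSeq window from 250 bases before to 50 bases after the annotated start (GRCm38.p6, the build also called mm10, plus strand), 5′ to 3′. Capitals mark matches to the core of the metal response element, spelled TGCACNC or TGCGCNC, on either strand. The windows lie at chr8:94178839-94179138 for Mt1, chr8:94172368-94172667 for Mt2 and chr1:191906531-191906830 for Slc30a1.
Mt1: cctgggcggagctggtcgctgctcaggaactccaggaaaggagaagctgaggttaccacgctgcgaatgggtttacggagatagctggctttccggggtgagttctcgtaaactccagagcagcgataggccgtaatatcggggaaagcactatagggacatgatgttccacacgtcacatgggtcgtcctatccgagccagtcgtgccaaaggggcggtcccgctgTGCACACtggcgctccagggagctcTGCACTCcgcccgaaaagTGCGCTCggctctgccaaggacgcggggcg
Mt2: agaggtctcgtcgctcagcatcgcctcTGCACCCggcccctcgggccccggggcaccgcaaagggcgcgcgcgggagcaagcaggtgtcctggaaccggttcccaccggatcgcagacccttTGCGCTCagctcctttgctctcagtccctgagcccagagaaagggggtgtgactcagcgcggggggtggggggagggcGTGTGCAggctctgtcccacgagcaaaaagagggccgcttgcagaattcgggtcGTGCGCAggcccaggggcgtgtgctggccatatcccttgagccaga
Slc30a1: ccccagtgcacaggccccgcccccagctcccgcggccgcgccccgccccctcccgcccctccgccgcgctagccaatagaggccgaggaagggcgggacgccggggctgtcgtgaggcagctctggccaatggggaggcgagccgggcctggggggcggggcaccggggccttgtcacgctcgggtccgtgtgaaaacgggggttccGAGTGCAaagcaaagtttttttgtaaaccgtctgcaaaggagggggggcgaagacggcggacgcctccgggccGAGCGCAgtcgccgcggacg

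The Mt2 window held 4 matches to this core, the Mt1 window 3 and the Slc30a1 window 2. Of 32817 RefSeq windows of this length, 0.518% held at least 4 matches, 1.97% at least 3, 7.12% at least 2 and 25.7% at least 1. The first base of each match, counted from the annotated start, was at -223, -128, -50 and 5 in Mt2, at -23, 3 and 21 in Mt1, and at -43 and 31 in Slc30a1. The Slc30a4 window (chr2:122702614-122702913, minus strand) also held 3 matches, and the Slc30a5 window (chr13:100833378-100833677, minus strand) held 1. No match was found in the windows of Mtf1 and Slc39a1 or in either window of Slc39a10. The RefSeq starts of the windows can differ from the gene coordinates given below. The Mtf1 window (chr4:124802299-124802598) lay wholly past the gene start at 124802104, so sequence before that start was not searched. For Slc39a10, the window at chr1:46925727-46926026 lay wholly upstream of the gene. Windows were matched for 8 of the 10 genes, not for Slc39a6 and Slc39a14, and 5 of the 8 had a match. Of 17 other genes of these families with a window, 10 had a match, so a match by itself did not set the 10 genes apart.

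Other short motifs were searched in the same windows on both strands. CCAAT, the letters bound by NF-Y, occurred in the windows of Mtf1, Slc30a1, Slc30a5 and Slc39a1, against 37.4% of all windows, and was absent from those of Mt1 and Mt2. The GC box GGGCGG, bound by SP1, occurred in 6 of the 8 genes, 5 times in the window of Slc30a1, 3 times in those of Mt1 and Slc30a4, 2 times in that of Slc30a5 and once in those of Mtf1 and Slc39a1, and not in those of Mt2 and Slc39a10. Of 17 other family genes 12 held it, and 35.6% of all windows held at least 1. In Mt1, one GC box match overlapped the last base of a metal response element match. TATAAA was found in no window of the 8 genes and in 13.6% of all windows. Sequence outside the windows was not searched, so TATAAA or further metal response elements beyond a window would have been missed. Mt1 and the other genes are therefore not shown to lack TATAAA, and the positions given hold for the annotated starts only. All matches in the windows are matches of letters and not measured binding.

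Mt1 and Mt2 were higher in every Taf4asKO library than in any control library. Mt1 (ENSMUSG00000031765, chr8:94179082-94180327, plus strand), the gene with the highest level per kilobase of the 10, had normalized counts of 994, 699 and 1541 in the control libraries and of 6226, 4932 and 6373 in the Taf4asKO libraries, each in the order of the replicate numbers, as throughout. The lowest Taf4asKO library was 3.2 times the highest control library. The means were 1078 and 5843.7 (SD 427 and 793, n = 3 each), a ratio of 5.42 and a difference of 2.50 (SE 0.24) on the log2(value + 1) scale. Mt2 (ENSMUSG00000031762, chr8:94172664-94173568, plus strand), the second metallothionein expressed in most tissues, had 254, 302 and 437 in control and 1677, 1578 and 2033 in Taf4asKO. Its lowest Taf4asKO value was 3.61 times its highest control value, and its means of 331 and 1762.7 (SD 94.9 and 239, n = 3 each) differed by 2.44 (SE 0.19) on the log2 scale. Only 18 of 18562 tested genes, Mt1 included, had a log2 difference at least as high as that of Mt1, and 21 at least as high as that of Mt2.

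The ratio of Mt1 to Mt2 normalized counts was 3.91, 2.31 and 3.53 in control and 3.71, 3.13 and 3.13 in Taf4asKO. The groups overlapped in this ratio, which varied more among the control libraries, where replicate 2 was lowest. Ranked by normalized count, Mt1 was at place 1998, 3011 and 1130 of all genes in control and at place 150, 195 and 135 in Taf4asKO. Mt2 was at place 6040, 5788 and 4265 in control and at place 1082, 1125 and 770 in Taf4asKO. Together both genes made up 0.00688% to 0.0153% of the total in control and 0.0481% to 0.0636% in Taf4asKO.

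The order of the libraries within a group was the same in both groups for Mt1 and in part for Mt2. Mt1 was lowest in replicate 2 and highest in replicate 3 of both groups, with deviations from the group mean of -0.04, -0.55 and 0.59 in control and 0.10, -0.24 and 0.13 in Taf4asKO on the log2 scale. Mt2 was highest in replicate 3 of both groups but lowest in replicate 1 in control (-0.34) and in replicate 2 in Taf4asKO (-0.15). Blocking on the replicate number left the differences as they were, and the standard error of the Mt1 difference was 0.13 and that of Mt2 0.12.

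**Figure D1:**
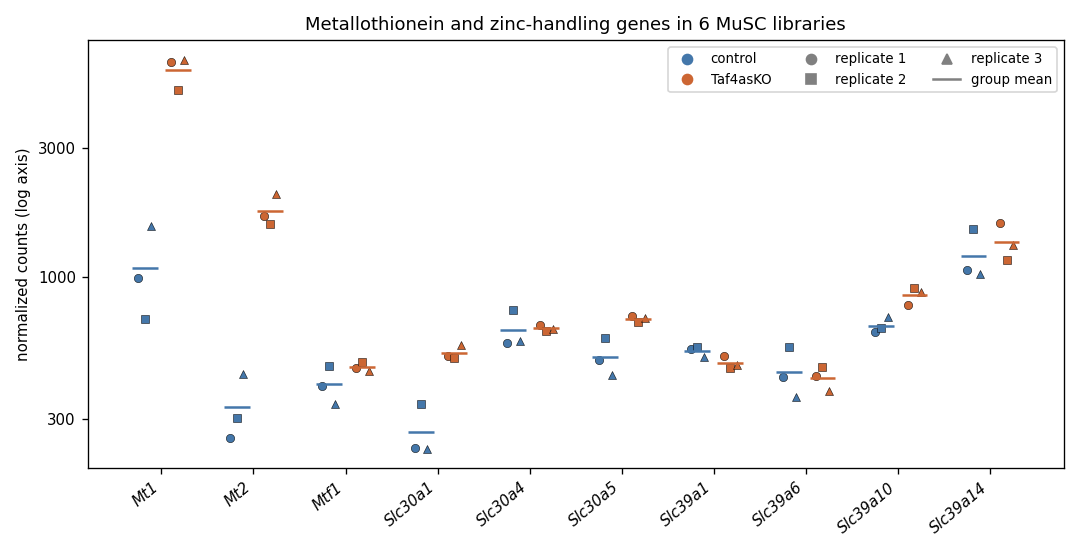
Normalized counts of the 10 genes (log axis) in 3 control and 3 Taf4asKO libraries, with symbols for the replicate number and a line at each group mean. The Taf4asKO libraries lie above all control libraries for Mt1, Mt2, Slc30a1, Slc30a5 and Slc39a10, and the groups overlap for the other 5 genes.

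Mtf1 (ENSMUSG00000028890, chr4:124802104-124849800, plus strand), which encodes the zinc sensor, had 395, 470 and 340 in control and 461, 485 and 451 in Taf4asKO. The groups overlapped, since control replicate 2 lay above 2 of the 3 Taf4asKO libraries. The log2 difference was 0.22 (SE 0.13), with a 95% interval from -0.07 to 0.52.

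Among the ZnT exporters, Slc30a1 differed most between the groups. Slc30a1 (ENSMUSG00000037434, chr1:191906767-191913247, plus strand) encodes the transporter that exports zinc across the plasma membrane. It had 233, 340 and 232 in control and 511, 501 and 562 in Taf4asKO. The lowest Taf4asKO library was 1.47 times the highest control library, and the log2 difference was 0.99 (SE 0.16), with 4.22% of tested genes at least as high. Slc30a5 (ENSMUSG00000021629, chr13:100802648-100833427, minus strand), whose product loads zinc into the early secretory pathway, had 492, 596 and 436 in control and 717, 682 and 704 in Taf4asKO. The groups did not overlap, and the log2 difference was 0.48 (SE 0.13). Slc30a4 (ENSMUSG00000005802, chr2:122681233-122702663, minus strand), which encodes a transporter of intracellular vesicles, had 570, 758 and 581 in control and 668, 635 and 643 in Taf4asKO. Its control libraries lay on both sides of the Taf4asKO libraries, with a log2 difference of 0.04 (SE 0.13, 95% interval -0.24 to 0.32).

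Of the 4 ZIP importers, Slc39a10 was the one whose groups did not overlap. Slc39a10 (ENSMUSG00000025986, chr1:46807544-46854046, minus strand), an importer of the plasma membrane, had 627, 646 and 711 in control and 788, 913 and 881 in Taf4asKO. Its log2 difference was 0.38 (SE 0.11), just at the fold limit of 1.3 used for calls. Slc39a14 (ENSMUSG00000022094, chr14:70303469-70351425, minus strand), which carries zinc, manganese and iron that is not bound to transferrin, had 1061, 1510 and 1025 in control and 1592, 1154 and 1314 in Taf4asKO. These values overlapped widely, with a log2 difference of 0.19 (SE 0.17). Slc39a1 (ENSMUSG00000052310, chr3:90248172-90253612, plus strand), a widely expressed importer, had 541, 550 and 506 in control and 512, 460 and 475 in Taf4asKO, a log2 difference of -0.14 (SE 0.10). Slc39a6 (ENSMUSG00000024270, chr18:24579881-24603817, minus strand), which forms a heteromer with the Slc39a10 product, had 429, 551 and 361 in control and 432, 465 and 379 in Taf4asKO. All 3 of its Taf4asKO values fell inside the control range, and the log2 difference was -0.05 (SE 0.16).

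A gene was called when its limma adjusted p was under 0.05 and its fold change at least 1.3, and the share of all 18562 tested genes called was 12.6%, with 5.93% higher and 6.71% lower in Taf4asKO. Blocking on the replicate number, calls higher in Taf4asKO numbered 1688 in place of 1101. All 10 genes were tested, and 5 of them were called, all higher: Mt1, Mt2, Slc30a1, Slc30a5 and Slc39a10. The same 5 genes were those with no overlap between the groups, where 33% of all tested genes had none. Since the genes were chosen with this contrast known, nothing is read from these counts. Mt1, Mt2 and Slc30a1 were called in each of 14 alternative fits. Slc30a5 was not called when control replicate 1, control replicate 3 or any Taf4asKO library was left out. Slc39a10 was not called under total-count or upper-quartile scaling, with a pseudocount of 5, or when control replicate 1 or 2 or any Taf4asKO library was left out.

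The whole families were then taken by gene symbol, Mt1 to Mt4, Slc30a1 to Slc30a10 and Slc39a1 to Slc39a14, so that transporters outside the 10 genes are also accounted for. Of 28 symbols 23 were matched and 22 were tested, and the calls were the 5 above. Of the 13 tested genes outside the 10, 0 passed the threshold in limma, and 2 (Slc30a9 and Slc39a5) had an unadjusted p under 0.05. Among them, the ZnT genes Slc30a7 (376, 369 and 388 in control, 437, 435 and 445 in Taf4asKO) and Slc30a9 (717, 782 and 637 in control, 814, 837 and 917 in Taf4asKO) had groups that did not overlap. Their log2 differences were 0.22 (SE 0.10, limma adjusted p 0.2) and 0.27 (SE 0.11, limma adjusted p 0.142). Slc30a2 (6, 10 and 9 in control, 4 in each Taf4asKO library) and Slc39a3 (224, 235 and 240 in control, 210, 198 and 202 in Taf4asKO) also had no overlap, with lower values in Taf4asKO and limma adjusted p of 0.214 and 0.332. Slc39a5 had 56, 24 and 35 in control and 17, 25 and 16 in Taf4asKO, with a log2 difference of -0.90 (SE 0.36, limma adjusted p 0.132). It passed only without control replicate 2, where its value was -1.182. Slc39a7, a ZIP gene of the endoplasmic reticulum, had 43, 52 and 39 in control and 47, 37 and 37 in Taf4asKO, but it shares 2084 exon bases with Gm20427 on the same strand, and the authors left out reads that overlapped more than 1 gene. The median log2 difference was 0.14 over the 8 ZnT genes and -0.02 over the 12 ZIP genes tested, against 0.004 over all tested genes.

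**Figure D2:**
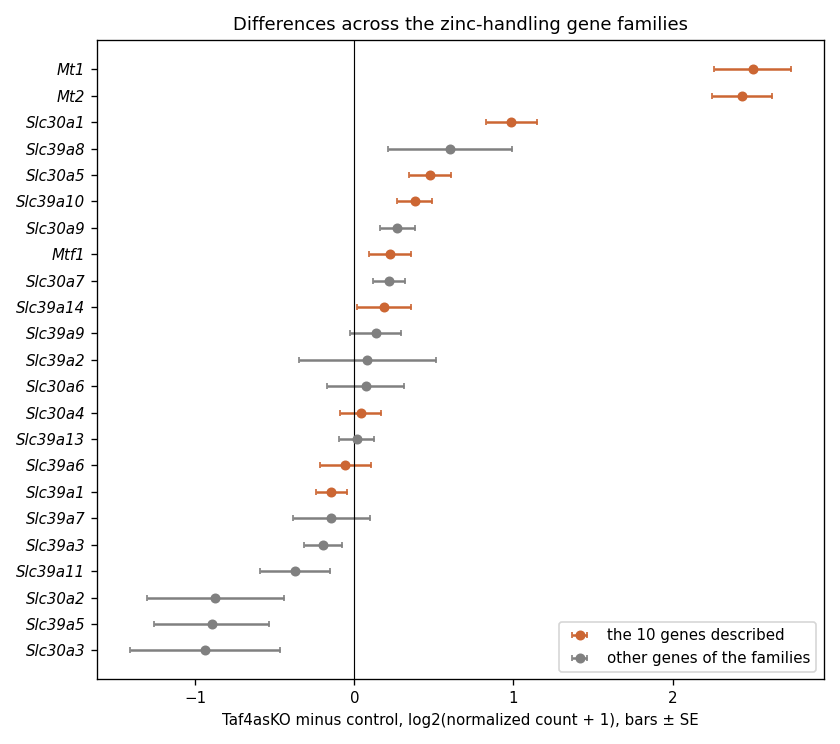
Difference between Taf4asKO and control on the log2(normalized count + 1) scale, with its SE, for the 10 genes and the 13 other tested genes of the families. Mt1 and Mt2 stand at 2.50 and 2.44 and Slc30a1 at 0.99, and all other genes lie between -0.94 and 0.60.

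Levels of different genes were compared per kilobase of merged exons (GENCODE M21). In control, Mt1 was at 865 normalized counts per kb (561 to 1240 over the libraries) and Mt2 at 563 (432 to 743), ranges that overlap. Slc39a1 followed at 225 (214 to 233), with no overlap with either. Slc30a4 at 116, Slc39a14 at 114, Slc39a6 at 110 and Slc39a10 at 109 had overlapping ranges and could not be ordered. Slc30a5 at 69.6 (59.8 to 81.7) overlapped in part with Slc30a1 at 51.2 (44.2 to 64.8), which overlapped with Mtf1 at 45.1 (38.2 to 52.8). In Taf4asKO, Mt1 was at 4690 per kb and Mt2 at 3000 with no overlap (3960 to 5110 and 2680 to 3460), and Slc30a1 at 100 (95.5 to 107) lay within reach of Slc30a5 at 96.1 (93.5 to 98.3). The order depends on the length used. The merged exons of Mt1 span 1246 bases because an annotated transcript runs through the introns, while its principal transcript has 549 bases, and on that length Mt1 was at 1960 per kb in control and 10600 in Taf4asKO. By principal transcript length Slc39a14 was at 243 and Slc30a5 at 160 per kb in control, the former beside Slc39a1 at 225 with overlapping ranges.

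**Figure D3:**
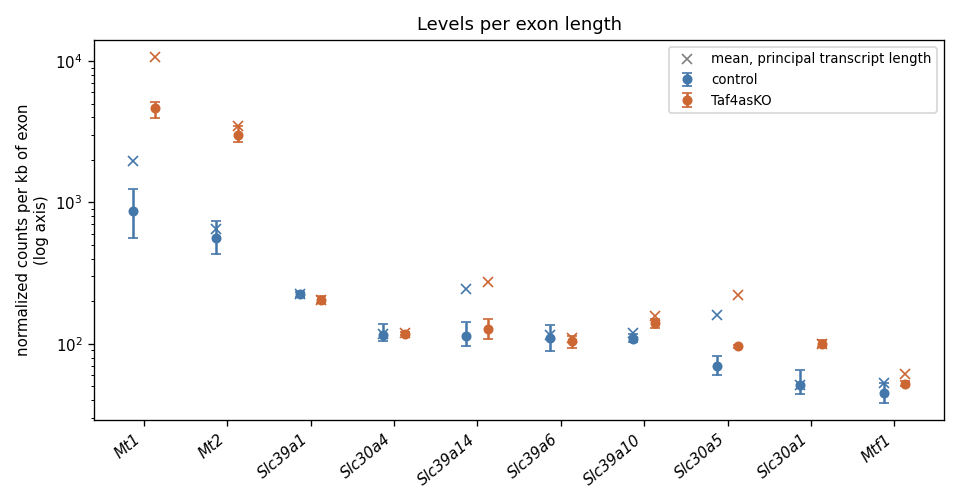
Normalized counts per kb of merged exons (log axis) for the 10 genes, with points at the group mean and bars from the lowest to the highest of 3 libraries. Crosses give the mean per kb of the principal transcript, which lies furthest above the point for Mt1, Slc30a5 and Slc39a14.

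Spread within groups differed between the genes and between the groups. The coefficient of variation in control ran from 4.37% for Slc39a1 to 39.6% for Mt1, and in Taf4asKO from 2.52% for Slc30a5 to 16.4% for Slc39a14. It was lower in Taf4asKO for 8 of the 10 genes, Slc39a1 and Slc39a10 being the exceptions, against 68.1% of all tested genes. Control replicate 2 had the highest control value for 7 of the 8 genes other than the metallothioneins, Slc39a10 being the exception, where it was the highest control library for 40.4% of all tested genes. The same library had the lowest Mt1 value.

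Overlap with other genes limits some of these values. Mt2 shares 432 exon bases with Gm45774 on the opposite strand, Mtf1 721 with 1110065P20Rik and Slc30a1 468 with 1700034H15Rik, also on opposite strands, and the sources used here do not say if reads were counted by strand. Gm45774 had 66, 41 and 117 in control and 95, 131 and 181 in Taf4asKO, which overlapped between the groups. 1700034H15Rik had 2, 3 and 3 in control and 10, 16 and 7 in Taf4asKO, so its groups did not overlap, and it was called higher (log2 difference 1.65, limma adjusted p 0.0459). Its highest value was 16, where the lowest of Slc30a1 was 232. Slc30a4 overlaps 4930417H01Rik by 130 exon bases on the opposite strand. None of the 500 windows of 50 bases in the principal Mt1 transcript, and none of the 462 in that of Mt2, occurred in a GENCODE M21 transcript of another gene, with Gm45774 left aside for Mt2, so the pair can be told apart at that read length.

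Mt1 and Mt2 lie side by side on chromosome 8, with 5513 bases between them, and their neighbours were examined. In a window of 150000 bases on either side, 8 other genes were tested, and 7 of them did not pass the threshold, with log2 differences between -0.29 and 0.93. The gene that passed, Gm39228, starts 2961 bases past the end of Mt1 on the same strand and was singled out after its values were seen. It had 6, 6 and 9 in control and 30, 38 and 40 in Taf4asKO, a log2 difference of 2.22 (SE 0.33, limma adjusted p 0.00286). The third metallothionein of the cluster that was matched, Mt3, known for its expression in brain, had 1, 1 and 3 in control and 8, 4 and 6 in Taf4asKO and was too low to be tested.

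**Figure D4:**
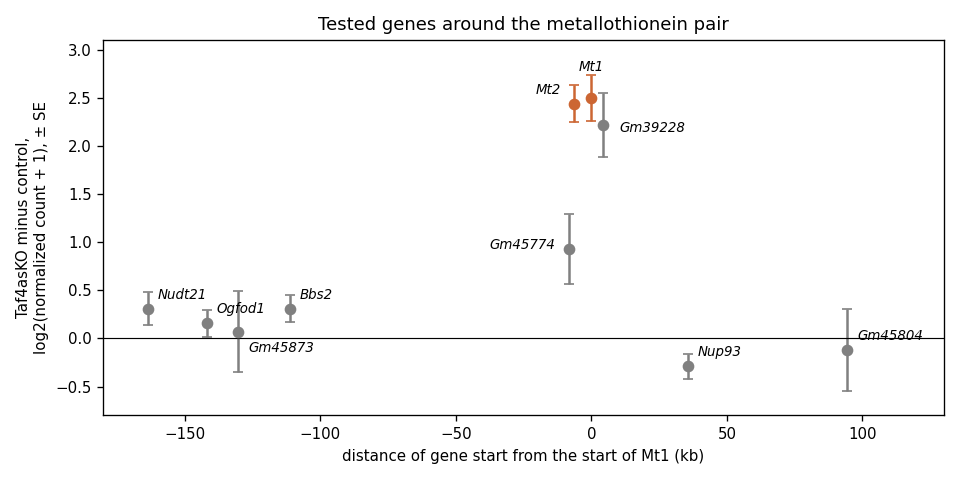
Difference between Taf4asKO and control (log2 scale, bars SE) for the 10 tested genes around the metallothionein pair, against the distance of each gene start from that of Mt1 in kb. Mt2, Mt1 and Gm39228 stand above 2, Gm45774 at 0.93, and the other 6 genes between -0.29 and 0.31.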

How the data were processed

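RNA-seq of total RNA from sorted MuSCs was analysed in 3 control and 3 Taf4asKO libraries, grouped by their titles. According to the methods and the labels, single-end reads were trimmed by the authors (Trimmomatic 0.39) and aligned to mm10 (STAR 2.6.0c), and the authors then removed multi-mapping reads, counted reads over exons with featureCounts 1.6.0, left out reads over several genes and normalized with DESeq2 1.14.1. The deposited values are a score, not raw reads: normalized counts that the authors rounded to whole numbers, which was inferred from the values, since in some libraries certain whole numbers are unused at regular intervals. The read depth behind them was not estimated here, so no counting interval is given. The table held 0 value columns without a sample.

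For genes with a mean of at least 5, log2(value + 1) was fitted with lmFit and eBayes (trend, two-sided) of limma 3.58.1 in R 4.3.3, a scale that understates changes of low genes. A gene was called with a Benjamini-Hochberg adjusted p under 0.05 over all tested genes and a fold change of at least 1.3. These limits and the 2 groups are those of the study. The script was tested on simulated data. After the group means were taken off, libraries with the same number correlated across genes (r = 0.235, 0.126 and 0.15). Libraries with different numbers had r from -0.149 to 0.0141. The replicate numbers may therefore pair the libraries, which the titles do not state. A fit with the number as a block was made beside the fit without it, and the fit without it gives the values reported. The sources used here state no design formula.

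The members and lists were chosen with earlier results of these data known. Named were the 10 genes, Taf4, any gene of the Mt, Slc30a and Slc39a families that was called, in each further list the 2 called genes with the largest change, and for Mt1 and Mt2 the 5 genes most like them (mean at least 50, no Gm or Rik symbols). The further lists were copper handling, oxidative and heavy-metal response, glucocorticoid response, immediate early and heat shock, and IL6-STAT3 response. Any other gene was singled out with its values known. Exon lengths and overlaps came from GENCODE M21 (mm10) and promoter windows from RefSeq (GRCm38.p6). Protein sequences were not used here. Alternatives were 3 other scalings, 2 filters, 2 pseudocounts, the block and leaving out each library. Figures were drawn with matplotlib 3.10.9.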

Additional observations from a re-analysis of the deposited data

How the results depend on the processing

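The results were recomputed in 14 alternative fits. Mt1 ranged from 2.23 to 2.80 on the log2 scale, Mt2 from 2.27 to 2.66 and Slc30a1 from 0.89 to 1.17, and Slc30a4 (-0.03 to 0.17) and Slc39a6 (-0.20 to 0.11) took both signs. All 140 member values moved by less than 1 SD of that gene, pooled within groups on the log2 scale. With 3 libraries per group, leaving 1 out cannot move a difference by as much as that SD. The block and the filters leave the difference itself unchanged. For these fits the bound was met in advance and does not show stability. Under the replicate block 3355 genes were called, 1688 higher and 1667 lower (2347, 1101 and 1246 without it), the calls among the 10 genes were the same, and the further lists had 27 calls in place of 22, of which the copper list had 2 in place of 1. When one library was left out, 956 to 3096 genes were called, 350 to 1607 higher and 595 to 1489 lower, against 2347, 1101 and 1246, lowest without Taf4asKO replicate 3 for all and lower calls and without Taf4asKO replicate 2 for higher calls, and highest without control replicate 2. In these fits 3 to 4 of the 10 genes and 3 to 5 genes of the families were called, against 5 and 5, with 3 and 3 without control replicate 1 or any Taf4asKO library, and 14 to 23 genes of the further lists, against 22, with 14 without Taf4asKO replicate 2. The cause was not tested. Upper-quartile scaling moved the median log2 difference over all genes from 0.004 to -0.029. DESeq2 and edgeR were not run because the values are not counts, and the depth behind low genes such as Mt3 is unknown here.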

Other observations

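Further lists were examined in the same libraries, most of them because their pathways are known to act on metallothionein genes or on metals. The immediate early and heat shock list was taken for cell dissociation. The part of all these lists in the metallothionein values was not tested. Of all tested genes, 12.6% were called, 5.93% higher. The lists were chosen with results of these data known. Of 10 glucocorticoid response genes tested, 6 were called, all higher in Taf4asKO, with a list median log2 difference of 0.77. Without Taf4asKO replicate 3, 3 were called, and with the replicate block 8, all higher. The largest were Cebpd, a transcription factor of the acute phase, from a mean of 3720 to 12100 normalized counts (log2 difference 1.72, SE 0.17, limma adjusted p 0.000326), and Errfi1, a feedback inhibitor of the EGF receptor, from 4330 to 11900 (1.47, SE 0.24, adjusted p 0.00427). Of 9 genes of the IL6-STAT3 list, which shares Cebpd with the list before and Junb and Socs3 with the immediate early list below, 5 were called, all higher, with Cebpd and the oncostatin M receptor gene Osmr (142 to 368, log2 difference 1.34, SE 0.23, adjusted p 0.00535) at the top and 3 called without Taf4asKO replicate 1 or 2.

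Of 9 genes of the oxidative and heavy-metal response, 4 were called, all higher (2 without Taf4asKO replicate 1 or 2), with Nqo1, a quinone reductase, at 19.7 and 43 (1.13, SE 0.32, adjusted p 0.045) and Gclc, the catalytic subunit of the first enzyme of glutathione synthesis, at 331 and 687 (1.05, SE 0.12, adjusted p 0.000901). In the copper list 10 genes were tested, among them Mtf2, which does not encode a copper transporter or chaperone. Of the 10, 1 was called, the copper chaperone gene Atox1 (0.68, SE 0.18, adjusted p 0.0334). Under the replicate block 2 were called, and 0 without control replicate 1 or 3 or any Taf4asKO library. Of 17 immediate early and heat shock genes, which are known to rise during tissue dissociation, 9 were called, 7 higher and 2 lower. With the replicate block 11 were called, 9 higher and 2 lower. The heat shock genes Hspa1b (-1.62, SE 0.28, adjusted p 0.00488) and Hspa1a (-1.52, SE 0.25, adjusted p 0.0039) were called lower. The values of this near-identical pair are uncertain because reads that fit both were removed as multi-mapping. The 7 called higher were Fos, Junb, Egr1, Ier2, Btg2, Zfp36 and Socs3. Atf3 rose more than these (1.17, SE 0.35, limma adjusted p 0.0524) but was called only with the block.

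Over the 6 libraries, the gene most like Mt1 among 10585 others with a mean of at least 50 was Mt2, with a root-mean-square difference of 0.248 between their centred log2 values. Vstm2a (0.332), Cxcl1 (0.363), Polr2a (0.4) and Xdh (0.414) followed. For Mt2 the nearest were Mt1, Xdh (0.252), Polr2a (0.266), Serpine2 (0.291) and Enpp2 (0.321). Xdh, which encodes xanthine dehydrogenase, had 51, 74 and 97 in control and 290, 310 and 292 in Taf4asKO. These genes were found by their likeness over the same libraries, which the difference between the groups dominates.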
